A study of Homo sapiens with 8 samples.

Results

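CDC45, the 4 GINS genes, MCM10, TIMELESS, TIPIN, CLSPN and WDHD1 build, start or accompany the replicative helicase, and they were taken by symbol from the gene table of sorted HT29 cells. They are 10 of the 38148 genes in that table. All 10 were among the 14219 genes that reached a mean of 1 RPM (reads of a gene in 1000000 reads on genes) over the 8 libraries and were tested.

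DNA is unwound at a replication fork by the CMG helicase, which consists of CDC45, the ring of MCM subunits and the GINS complex. The GINS complex holds 1 copy each of GINS1, GINS2, GINS3 and GINS4, and together with CDC45 it turns the loaded MCM ring into an active helicase, a step that also needs MCM10. TIMELESS and TIPIN form a pair of proteins that travels with the helicase and protects the fork, CLSPN is the adaptor through which the ATR kinase activates CHK1 at slowed forks, and WDHD1 ties the helicase to the polymerase that makes primers. Many such genes are known targets of E2F factors and are transcribed when cells pass from G1 into S phase.

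HT29 cells come from a human colorectal cancer, and selumetinib blocks MEK, the kinase upstream of ERK. Cells were left untreated or given 1 μM selumetinib for 24 h, fixed with glyoxal, stained for cyclin B1 protein (the product of CCNB1, which accumulates late in the cell cycle) and sorted into a CCNB1-negative and a CCNB1-positive fraction. Poly(A) RNA of each fraction was sequenced, with 2 libraries for the negative and 2 for the positive fraction of untreated cells, and as many of selumetinib-treated cells, which makes 4 groups. All groups are of the same cell line, so that the values describe 1 genetic background, and nothing in the labels says whether replicates were separate cultures, so p-values measure the spread between these libraries.

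The labels of every library disagree: its title gives the other treatment and the other fraction than its short description does. The groups follow the descriptions, which are also the column names of the table. If the titles held instead, each response below would belong to the other fraction and each fraction difference to the other treatment, all with reversed signs, and the difference between the responses would not change. The mRNA of CCNB1 was higher in the libraries described as CCNB1-positive, at 648 ± 80.04 against 154 ± 24.8 RPM in untreated cells and 288 ± 29.7 against 8.97 ± 2.88 RPM in treated cells (mean ± SD, n = 2). Of 10 genes known as outputs of ERK signalling, which lies downstream of the kinase that selumetinib blocks, 9 were called lower in the libraries described as treated in each fraction. Of all tested genes, 35.8% were called lower in the CCNB1-negative and 27.3% in the CCNB1-positive fraction. The CCNB1 values and the ERK outputs both run in the direction that the descriptions give.

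Reads on genes ranged from 12696860 to 23916160 per library and were fewest in the selumetinib-treated CCNB1-negative libraries. Mitochondrial transcripts took 4.44 to 7.80% of reads in untreated and 11.9 to 14.8% in treated libraries, and MALAT1 took 0.303 to 0.386% and 2.01 to 4.42%. The 8 markers of colon epithelium summed to between 10767 and 12064 RPM in untreated and between 5418 and 9160.1 RPM in treated libraries, which did not overlap. In treated CCNB1-negative cells 3 of the 8 were called lower and 2 higher, against 35.8% and 38.2% of all tested genes. The 8 markers of blood, vessel and connective tissue cells summed to between 7.19 and 17.8 RPM, and 6 of them were too low to be tested. CD3E and COL1A2 had 0 or 1 read in every library and PTPRC had 0 to 11, whereas COL1A1, a collagen gene, had 6 to 107 and was higher after selumetinib in both fractions, by 1.81 ± 0.49 and 2.19 ± 0.49 (SE) on the log2 scale (limma adjusted p = 0.0043 and 0.00149). The part of these markers in the members' values was not tested.

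The promoters of these genes are shown first because E2F factors bind a short sequence near the start of many replication genes. The part of E2F in the members' values was not tested. RefSeq windows from 250 bases before to 50 bases after a transcription start (GRCh38.p14) were matched by symbol for 9 of the 10 members, with 12 windows because CDC45 has 3 and TIPIN has 2. GINS4 had no entry. The E2F letters searched were TTTGGCGC or TTTCGCGC or TTTCCCGC or TTTGCCGC, on both strands. They were found in 5 of the 12 windows, each of another member, against 4.91% of the 14434 windows of tested genes and 3.31% of all 35116 windows. The 5 stretches of 60 bases that hold them follow, with the matched letters in capitals.
GINS1: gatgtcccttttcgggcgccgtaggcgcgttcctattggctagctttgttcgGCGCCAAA
GINS2: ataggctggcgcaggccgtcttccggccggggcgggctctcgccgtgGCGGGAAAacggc
GINS3: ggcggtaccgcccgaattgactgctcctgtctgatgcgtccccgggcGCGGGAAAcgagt
TIPIN: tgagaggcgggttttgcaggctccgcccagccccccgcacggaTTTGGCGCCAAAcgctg
CLSPN: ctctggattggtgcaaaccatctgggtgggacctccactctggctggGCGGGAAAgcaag

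The GINS1 stretch lies at chr20:25407626-25407685 on the plus strand, and its match begins after the transcription start. The GINS2 stretch lies at chr16:85688973-85689032 on the minus strand, and its match begins 31 bases before the start. The GINS3 and CLSPN stretches lie at chr16:58392419-58392478 on the plus strand and chr1:35769971-35770030 on the minus strand. Each has a match that begins 5 bases before the start and runs past it. GINS3, CLSPN and GINS2 carry the same 8 letters, GCGGGAAA, whereas GINS1 carries GCGCCAAA. The TIPIN stretch lies at chr15:66356735-66356794 on the minus strand and belongs to only 1 of its 2 windows. In it a forward and a reverse match overlap into 1 palindrome of 12 bases. No E2F letters were in the windows of CDC45, MCM10, TIMELESS and WDHD1, which says only that these letters are not in these windows.

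Other letters of cell cycle and general promoters were searched in the same windows, and a member counts where any of its windows holds them. CCAAT was in windows of 7 of the 9 members, against 35.2% of the windows of tested genes, and the GC box GGGCGG was in those of all 9, against 65.3%. The CDC45 windows hold several copies of CCAAT, and the one that starts 112 bases before the start of its first window is followed by another 10 bases on, at 102 bases. The E-box CACGTG was found in the TIMELESS window alone, 25 bases before the start, against 9.42% of tested windows. The ETS letters CCGGAAGT were found in GINS3 alone, against 7.60%. The CHR letters TTTGAA, known from genes of G2 and mitosis, were in the windows of 0 of the 9 members and in 10.5% of tested windows. Matches overlap one another in places, and a match is a description of letters and not a sign of binding.

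In CCNB1-negative cells, all 10 genes were lower after selumetinib. They fell to between 5.56% (GINS2) and 26.9% (TIPIN) of the untreated level. The 10 members summed to 651 to 673 RPM in the negative and 406 to 409.5 RPM in the positive fraction of untreated cells, and to 91.2 to 113 RPM and 234 to 279 RPM in those of treated cells. In bulk samples, fewer cells that express a gene and less RNA of it per cell cannot be told apart. Of all genes tested, 35.8% were called lower in this comparison (limma, Benjamini-Hochberg adjusted p under 0.05). The median log2 difference of the members was -3.00, against 0.05 over all tested genes. With reads scaled to nuclear genes without MALAT1, whose shares differed between treated and untreated libraries, all 10 members were again called lower. Both treated libraries were below both untreated ones for all 10 members, as they were for 41.9% of tested genes.

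**Figure D1:**
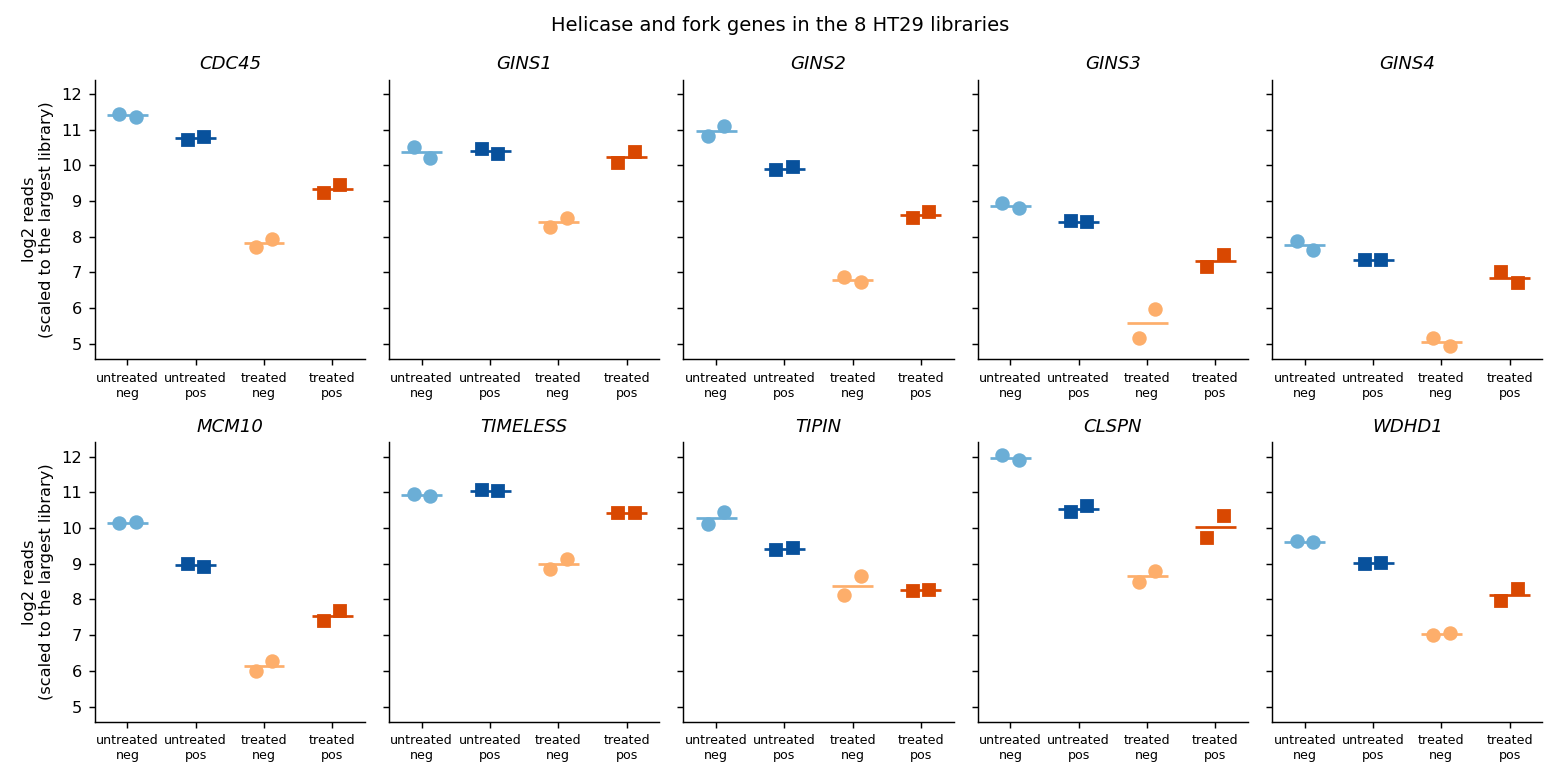
Deposited log2 reads of each gene in the 8 libraries (y axis, log2 of reads scaled to the largest library, 1 panel per gene), with untreated libraries in blue, treated in orange, CCNB1-negative (neg) as circles, CCNB1-positive (pos) as squares and the mean of each pair as a line. In 9 panels the treated CCNB1-negative pair is the lowest of the 4, whereas in the TIPIN panel both treated pairs lie together.

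CDC45 (ENSG00000093009, chromosome 22, 19479459 to 19520612, plus strand), the subunit that joins the MCM ring and GINS into a helicase, gave 117 and 108 RPM in the negative and 69.99 and 73.6 RPM in the positive fraction of untreated cells, and 9.51 and 11.4 RPM and 26.8 and 31.7 RPM in those of treated cells. The 4 groups did not overlap and stood in the order untreated negative, untreated positive, treated positive, treated negative. In CCNB1-negative cells CDC45 fell to 8.40% (95% interval 6.68 to 10.6%) of the untreated level, a log2 difference of -3.57 ± 0.15 (SE) (limma adjusted p = 9.18e-10).

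The 4 GINS genes encode a complex of equal parts, and the intervals of their falls in CCNB1-negative cells did not all overlap. GINS2 (ENSG00000131153, chromosome 16, 85676198 to 85690073, minus strand) gave 76.1 and 91.8 RPM in the negative and 38.8 and 40.7 RPM in the positive fraction of untreated cells, and 5.29 and 4.96 RPM and 16.3 and 18.7 RPM in those of treated cells. Only 74 and 63 reads lay behind the treated CCNB1-negative values, and no group overlapped another. GINS2 fell to 5.56% (95% interval 4.34 to 7.14%), a log2 difference of -4.17 ± 0.17 (SE) (limma adjusted p = 7.18e-10), the largest fall of the 10 members in these cells.

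GINS1 (ENSG00000101003, chromosome 20, 25407673 to 25452628, plus strand) gave 61.4 and 48.9 RPM in the negative and 58.9 and 52.7 RPM in the positive fraction of untreated cells, and 14.2 and 17.01 RPM and 47.8 and 59.5 RPM in those of treated cells. Here the treated CCNB1-negative pair stood alone at the bottom and the other 3 groups overlapped. GINS1 fell in CCNB1-negative cells to 25.7% (95% interval 19.9 to 33.1%), a log2 difference of -1.96 ± 0.17 (SE) (limma adjusted p = 2.25e-07).

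GINS3 (ENSG00000181938, chromosome 16, 58295080 to 58406144, plus strand) gave 20.6 and 18.5 RPM in the negative and 14.4 and 14.2 RPM in the positive fraction of untreated cells, and 1.64 and 2.91 RPM and 6.36 and 8.08 RPM in those of treated cells. Just 23 and 37 reads lay behind the treated CCNB1-negative values, and its replicates there lay farther apart on the log2 scale than those of any other member. GINS3 fell to 10.2% (95% interval 6.92 to 14.98%) (limma adjusted p = 9.53e-08). GINS4 (ENSG00000147536, chromosome 8, 41529218 to 41545030, plus strand), the member with the fewest reads, gave 9.93 and 8.21 RPM in the negative and 6.77 and 6.76 RPM in the positive fraction of untreated cells, and 1.64 and 1.42 RPM and 5.71 and 4.68 RPM in those of treated cells. It fell to 15.4% (95% interval 10.5 to 22.4%) (limma adjusted p = 4.74e-07), with just 23 and 18 reads behind the treated values.

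MCM10 (ENSG00000065328, chromosome 10, 13161554 to 13211104, plus strand), the factor that completes helicase activation, gave 47.3 and 47.3 RPM in the negative and 21.4 and 19.9 RPM in the positive fraction of untreated cells, and 2.93 and 3.62 RPM and 7.56 and 9.28 RPM in those of treated cells. Its groups did not overlap and stood in the order seen for CDC45. It fell to 6.26% (95% interval 4.71 to 8.31%), a log2 difference of -4.00 ± 0.19 (SE) (limma adjusted p = 1.8e-09).

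The genes of the fork protection complex split. TIMELESS (ENSG00000111602, chromosome 12, 56416363 to 56449426, minus strand) gave 83.9 and 79.8 RPM in the negative and 88.6 and 86.96 RPM in the positive fraction of untreated cells, and 21.2 and 26.1 RPM and 60.9 and 61.7 RPM in those of treated cells. Its partner TIPIN (ENSG00000075131, chromosome 15, 66336191 to 66386746, minus strand) gave 46.5 and 57.8 RPM in the negative and 27.8 and 28.5 RPM in the positive fraction of untreated cells, and 12.7 and 18.6 RPM and 13.5 and 13.9 RPM in those of treated cells. TIMELESS was nearly level across the untreated fractions and lowest in treated CCNB1-negative cells, whereas the treated fractions of TIPIN overlapped. In CCNB1-negative cells the pair fell by similar amounts, TIMELESS to 26.1% (95% interval 21.04 to 32.4%) (limma adjusted p = 6.4e-08) and TIPIN to 26.9% (95% interval 20.3 to 35.8%) (limma adjusted p = 9.22e-07).

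CLSPN (ENSG00000092853, chromosome 1, 35720218 to 35769978, minus strand), the checkpoint adaptor, gave 177 and 159 RPM in the negative and 58.5 and 64.5 RPM in the positive fraction of untreated cells, and 16.3 and 20.8 RPM and 37.7 and 57.6 RPM in those of treated cells. It was the most abundant of the 10 in untreated CCNB1-negative cells by RPM, which is not corrected for its long transcript. It fell in CCNB1-negative cells to 9.98% (95% interval 7.51 to 13.3%), a log2 difference of -3.32 ± 0.19 (SE) (limma adjusted p = 6.98e-09). WDHD1 (ENSG00000198554, chromosome 14, 54938949 to 55027105, minus strand), the link to the priming polymerase, gave 33.4 and 32.2 RPM in the negative and 21.1 and 21.7 RPM in the positive fraction of untreated cells, and 5.86 and 6.22 RPM and 11.01 and 14.03 RPM in those of treated cells. It fell to 16.7% (95% interval 12.8 to 21.9%) (limma adjusted p = 3.29e-08).

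In CCNB1-positive cells the fall was smaller and reached 8 of the 10 members. The called members fell to between 37.8% (CDC45) and 70.6% (CLSPN) of the untreated level, and 27.3% of all genes tested were called lower. The median log2 difference of the 10 was -0.99, against 0.17 over all tested genes. Both treated libraries lay below both untreated ones for 9 members, against 37.1% of tested genes.

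CDC45 and MCM10, which act together in forming the active helicase, had nearly the same response in these cells, -1.40 ± 0.15 (SE) and -1.40 ± 0.19 (SE) on the log2 scale (limma adjusted p = 4.84e-06 and 2.72e-05). GINS2 fell by a like amount, to 40.9% (95% interval 31.9 to 52.5%), and GINS3 to 46.7% (95% interval 31.8 to 68.7%) (limma adjusted p = 1.85e-05 and 0.0021). The remaining GINS genes did not pass the test. GINS1 differed by -0.17 ± 0.17 (SE), with a 95% interval -0.53 to 0.20 (limma adjusted p = 0.4), so that a fall to 69.1% of the untreated level lies within its interval. GINS4 differed by -0.49 ± 0.26 (SE), with a 95% interval -1.04 to 0.05 (limma adjusted p = 0.103), although its treated libraries did not overlap the untreated ones. It passed with quantile normalization, at -1.30 (limma adjusted p = 0.000623), and with median of ratios scaling, at -0.66 (limma adjusted p = 0.0276).

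Among the fork genes of CCNB1-positive cells, TIPIN fell the most, to 45.2% (95% interval 33.95 to 60.1%) (limma adjusted p = 0.000151). WDHD1 fell to 54.03% (95% interval 41.4 to 70.5%) (limma adjusted p = 0.000671) and TIMELESS to 64.9% (95% interval 52.3 to 80.6%) (limma adjusted p = 0.00191). CLSPN was the weakest of the calls, a log2 difference of -0.50 ± 0.19 (SE) (limma adjusted p = 0.0325). Without selumetinib-treated CCNB1-positive replicate 1, in which CLSPN stood at 37.7 RPM against 57.6 in replicate 2, its difference was -0.20 (limma adjusted p = 0.406). Scaling to nuclear reads without MALAT1 also ended that call, at -0.25 (limma adjusted p = 0.278).

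**Figure D2:**
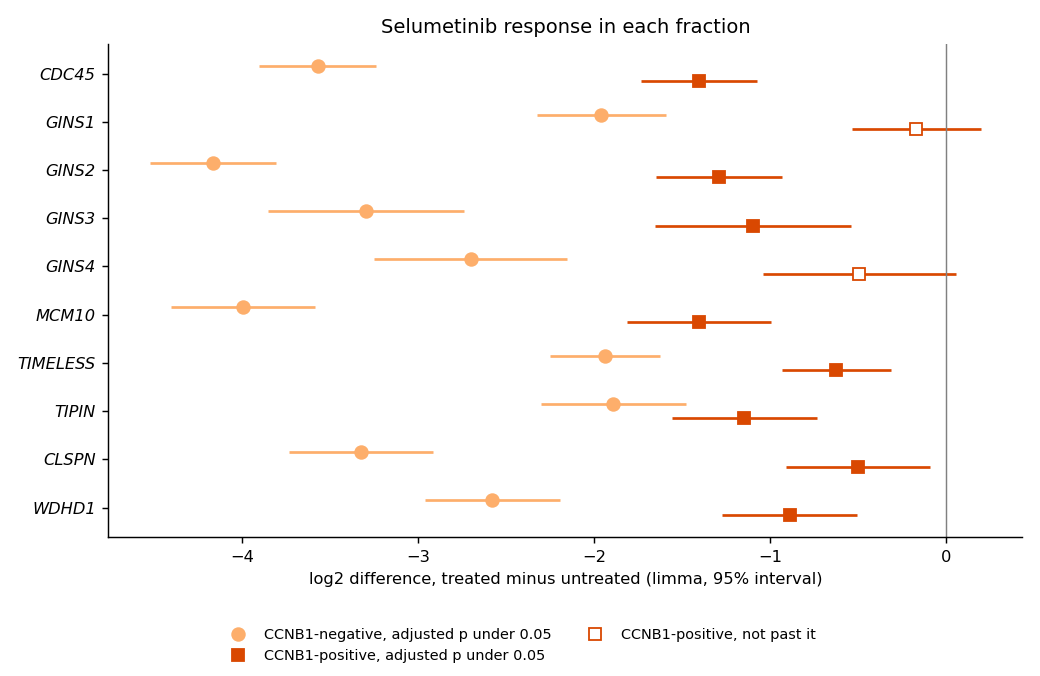
Log2 difference of treated minus untreated cells for each gene (x axis), for CCNB1-negative cells as circles and CCNB1-positive cells as squares, with 95% intervals from limma as lines and open symbols where the adjusted p was not under 0.05. The circles run from -4.17 to -1.89 and the squares from -1.40 to -0.17, and GINS1 and GINS4 have open squares.

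Before treatment, 5 of the 10 members were lower in the CCNB1-positive than in the CCNB1-negative fraction and 0 were higher, while 1.51% of all genes tested were called lower and 1.36% higher. The 5 were CLSPN, MCM10, GINS2, TIPIN and CDC45. CLSPN in CCNB1-positive cells was at 36.8% (95% interval 27.7 to 48.9%) of its CCNB1-negative level (limma adjusted p = 0.00045), MCM10 at 43.7% (95% interval 32.9 to 58.1%) (limma adjusted p = 0.00217) and GINS2 at 47.7% (95% interval 37.2 to 61.2%) (limma adjusted p = 0.00183). These 3 kept their side of the threshold when any 1 library was left out. TIPIN was at 54.5% (95% interval 41.01 to 72.6%) (limma adjusted p = 0.0222) and CDC45 at 63.9% (95% interval 50.8 to 80.5%) (limma adjusted p = 0.0382). The count was 3 without untreated CCNB1-negative replicate 2, without untreated CCNB1-positive replicate 1 and without untreated CCNB1-positive replicate 2.

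The 5 members that did not pass differed from one another in direction. TIMELESS differed by 0.11 ± 0.14 (SE) (95% interval -0.20 to 0.42) and GINS1 by 0.03 ± 0.17 (SE) (95% interval -0.34 to 0.40), which for TIMELESS spans 86.8 to 134% of the CCNB1-negative level and for GINS1 79.2 to 132%. WDHD1, GINS3 and GINS4 had differences of -0.61 ± 0.18 (SE), -0.45 ± 0.26 (SE) and -0.41 ± 0.26 (SE) (limma adjusted p = 0.0991, 0.519 and 0.559). With the 2 fractions of a replicate as a block WDHD1 passed (limma adjusted p = 0.00664), as it did with limma-voom (adjusted p = 0.0428).

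Under selumetinib, 9 of the 10 members were higher in CCNB1-positive than in CCNB1-negative cells, against 13.8% of all genes tested, and the median member stood at 278% of its CCNB1-negative level, while the median log2 difference of all tested genes was 0.02. GINS1 was 3.53-fold higher (limma adjusted p = 3.13e-06), GINS2 3.51-fold (limma adjusted p = 2.71e-06), GINS4 3.48-fold (limma adjusted p = 0.000224) and GINS3 3.37-fold (limma adjusted p = 0.000328). The estimates of the 4 GINS genes thus lay within a narrow range in this comparison, although they did not in the responses. Their 95% intervals were wider, at 274 to 455% of the CCNB1-negative level for GINS1 and 273 to 450% for GINS2. For GINS3 and GINS4 they were 229 to 495% and 238 to 509%. CDC45 was 2.88-fold higher and TIMELESS 2.68-fold (limma adjusted p = 7.51e-06 and 8.07e-06). MCM10 was 2.64-fold higher, CLSPN 2.60-fold and WDHD1 2.12-fold, the smallest of the called differences (limma adjusted p = 0.000147, 0.000174 and 0.000839). TIPIN was the exception, with a difference of -0.13 ± 0.19 (SE) and a 95% interval -0.54 to 0.28 (limma adjusted p = 0.651). Its treated CCNB1-negative replicates lay at 12.7 and 18.6 RPM, on either side of the 13.5 and 13.9 RPM of the CCNB1-positive ones.

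**Figure D3:**
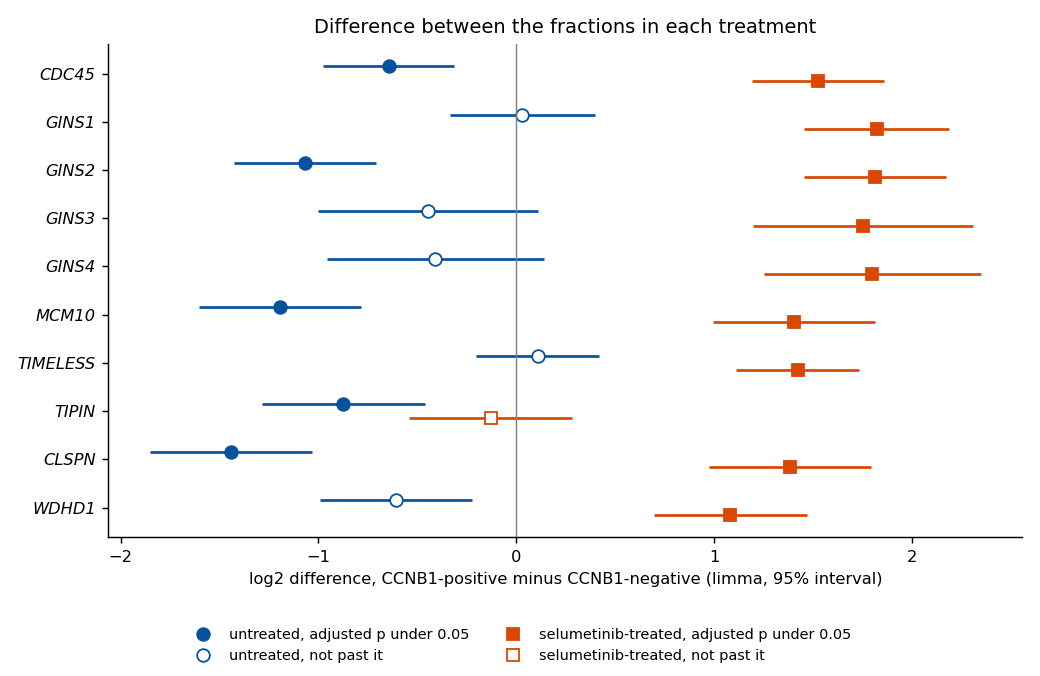
Log2 difference of CCNB1-positive minus CCNB1-negative cells for each gene (x axis), in untreated cells (circles) and in selumetinib-treated cells (squares), with 95% intervals from limma as lines and open symbols where the adjusted p was not under 0.05. Each square but that of TIPIN lies to the right of 0 at 1.08 or more, and 8 of the 10 circles lie to the left of 0.

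The difference between the responses of the fractions was tested as an interaction, which shares its libraries with all the comparisons above. It passed for 9 of the 10 members, each with the smaller fall in CCNB1-positive cells, against 4.99% of all genes tested. The median difference between responses was 2.18 on the log2 scale, against 0.11 over all tested genes. MCM10 differed by 2.60 ± 0.27 (SE) (limma adjusted p = 2.55e-05), GINS4 by 2.21 ± 0.36 (SE) (limma adjusted p = 0.00147) and GINS3 by 2.20 ± 0.37 (SE) (limma adjusted p = 0.00177). CDC45 differed by 2.17 ± 0.22 (SE) (limma adjusted p = 2.02e-05), GINS1 by 1.79 ± 0.24 (SE) (limma adjusted p = 0.000247) and TIMELESS, the smallest that passed, by 1.31 ± 0.20 (SE) (limma adjusted p = 0.000969). For TIPIN the difference between responses was 0.75 ± 0.27 (SE), with a 95% interval 0.16 to 1.33 (limma adjusted p = 0.139). With the 2 fractions of a replicate as a block, the same difference passed (limma adjusted p = 0.00807). Without selumetinib-treated CCNB1-negative replicate 2, the library in which TIPIN was higher, the difference was 1.00.

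Cell cycle markers also differed between these groups, but not all in the order of the members. Unlike the members, all 6 genes of G2 and mitosis were called higher in the CCNB1-positive fraction of untreated cells, against 1.36% of all genes tested. The S phase genes RRM2, TYMS and PCNA summed to 933 to 1004 RPM in the negative and 612 to 676 RPM in the positive fraction of untreated cells, and to 74.2 to 81.00 RPM and 308 to 354 RPM in those of treated cells. The 6 genes of G2 and mitosis summed to 696 to 786 RPM in the negative and 2951 to 3384 RPM in the positive fraction of untreated cells, and to 76.9 to 102 RPM and 2375 to 2547 RPM in those of treated cells. All 3 S phase genes and all 6 G2 and mitosis genes were called lower in treated CCNB1-negative cells, as all 10 members were, against 35.8% of all tested genes. In treated CCNB1-positive cells, 3 of the 3 and 5 of the 6 were called lower. Their median log2 differences there were -1.06 and -1.11, against -0.99 for the members. The exception was TOP2A, at 0.12 ± 0.21 (SE) (limma adjusted p = 0.62). With 1422 and 1686 RPM in the treated CCNB1-positive libraries, it made up much of the G2 and mitosis sum there. The outputs of ERK signalling had median log2 differences of -1.28 for the CCNB1-negative and -1.31 for the CCNB1-positive fraction. The 4 genes of the G1/S step, CCNE1, CCNE2, CDC6 and CDC25A, were all called lower in treated CCNB1-negative cells. In CCNB1-positive cells 3 of them were, against 27.3% of all tested genes. The part of cell cycle composition in the members' values was not tested.

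Because reads of 2 genes in 1 library share its depth, partner genes were also set against each other within libraries, as a description with no test and with the pairs chosen after their values were seen. For TIPIN over TIMELESS, the log2 ratio of reads was -0.85 and -0.47 in the negative and -1.67 and -1.61 in the positive libraries of untreated cells, and -0.73 and -0.49 and -2.18 and -2.15 in those of treated cells. The ratio of this pair was lower in the CCNB1-positive than in the CCNB1-negative libraries in both treatments, and in CCNB1-negative cells it overlapped between treated and untreated. For CLSPN over TIMELESS it was 1.07 and 0.99 in untreated CCNB1-negative libraries and between -0.69 and -0.10 in the other 6.

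Within GINS, the log2 ratio of GINS1 over GINS2 was -0.31 and -0.91 in the negative and 0.60 and 0.37 in the positive libraries of untreated cells, and 1.42 and 1.78 and 1.55 and 1.67 in those of treated cells. All 4 treated libraries lay above all 4 untreated ones, and the treated fractions overlapped. GINS4 over GINS2 had the same separation, with group means of -3.21 and -2.55 in the untreated fractions and -1.75 and -1.76 in the treated. CDC45 over GINS2 stayed within a range of 0.24 to 1.20 in the 8 libraries. MCM10 over CDC45 was -1.25 ± 0.08 in untreated CCNB1-negative cells and had means between -1.80 and -1.68 in the other 3 groups. For WDHD1 over CDC45, all 4 treated libraries again lay above all 4 untreated, with means of -1.78 and -1.75 in untreated and -0.79 and -1.23 in treated cells.

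**Figure D4:**
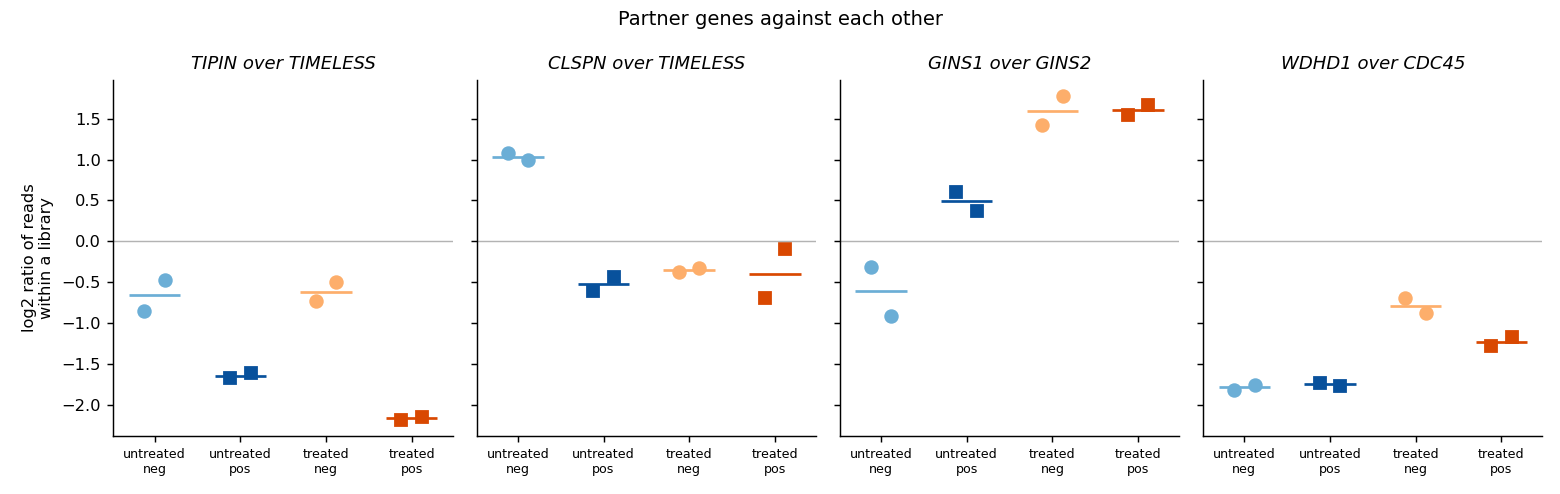
Log2 ratio of the reads of 2 member genes within each of the 8 libraries (y axis) for 4 pairs, with the mean of each group as a line, untreated libraries in blue, treated in orange, CCNB1-negative (neg) as circles and CCNB1-positive (pos) as squares. The 4 orange points lie above the 4 blue points for GINS1 over GINS2 and for WDHD1 over CDC45, and the squares lie below the circles of the same treatment for TIPIN over TIMELESS.

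To compare levels between genes, RPM were divided by the length of all exons of each gene in GENCODE 44, giving RPM per kilobase (RPKM). In untreated CCNB1-negative cells CDC45 was highest at 37.9 ± 2.13 RPKM (mean ± SD, n = 2), followed by GINS2 at 26.1 ± 3.44, then TIPIN at 19.04 ± 2.90 and CLSPN at 17.5 ± 1.34, whose replicates overlapped. TIMELESS stood at 13.99 ± 0.501, MCM10 at 8.67 ± 0.00296, GINS1 at 6.88 ± 1.10, WDHD1 at 5.13 ± 0.134, GINS3 at 3.83 ± 0.286 and GINS4 at 1.67 ± 0.223. By this length no neighbours other than TIPIN and CLSPN overlapped in that group. With the length of the longest coding transcript, GINS2 at 31.96 ± 4.22 RPKM and TIPIN at 30.2 ± 4.59 lay close together. By that length GINS1 at 15.2 ± 2.44 stood above MCM10 at 10.3, and GINS3 at 8.89 ± 0.664 above WDHD1 at 5.45 ± 0.142.

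The order by length changed with fraction and treatment. In untreated CCNB1-positive cells CDC45 led at 24.1 ± 0.849 RPKM and TIMELESS followed at 15.01 ± 0.204, while CLSPN stood at 6.41 ± 0.448 and overlapped GINS1 at 6.96 ± 0.549. By the longest coding transcript CLSPN and GINS1 stood apart in that group, at 7.22 ± 0.505 and 15.4 ± 1.21. In treated CCNB1-negative cells TIPIN led at 5.72 ± 1.51 RPKM, above TIMELESS at 4.04 ± 0.603 and CDC45 at 3.51 ± 0.454, which overlapped each other. In treated CCNB1-positive cells TIMELESS at 10.5 ± 0.0894 and CDC45 at 9.82 ± 1.15 overlapped at the top, followed by GINS1 at 6.69 ± 1.04. GINS4 was the lowest in all 4 groups. With the length of the longest coding transcript instead, GINS1 was first in treated CCNB1-positive cells at 14.8 ± 2.30 RPKM and overlapped CDC45 at 14.1 ± 1.65; its exons sum to 8017 bases, against 3627 in that transcript. TIPIN still led in treated CCNB1-negative cells at 9.06 ± 2.40 RPKM.

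**Figure D5:**
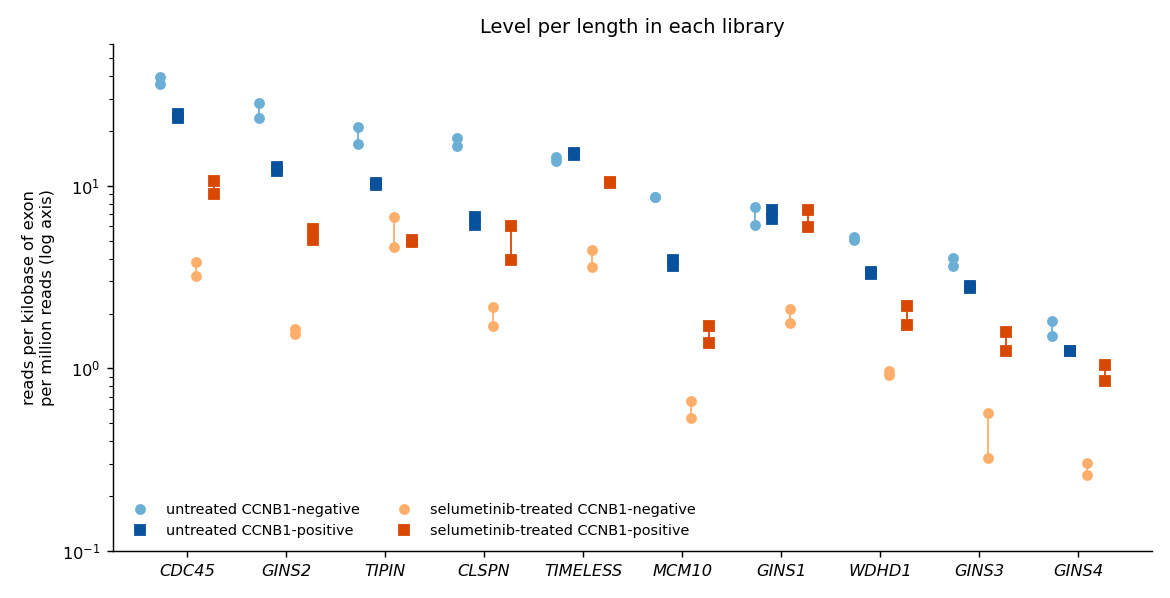
RPM per kilobase of exon (y axis, log scale) of each gene in the 8 libraries, with a line joining the 2 libraries of a group and genes ordered by their level in untreated CCNB1-negative cells. CDC45 lies highest and GINS4 lowest in the untreated groups, and TIPIN is the highest gene in treated CCNB1-negative cells.

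The likeness of other genes was measured by the root mean square difference of log2 values over the 8 libraries after the mean of each gene was taken off, where a small value is a close match. CDC45 was closest to MCM4, a subunit of the helicase ring, at 0.13, MCM10 to ORC1, a subunit of the origin recognition complex, at 0.13, and GINS2 to FEN1, the flap nuclease of lagging strand synthesis, at 0.15. WDHD1 was within 0.13 of PRIM1, a primase subunit, and of RFC4, a clamp loader subunit, after POGLUT3 at 0.11. GINS3 was closest to XRCC2, of homologous recombination, at 0.19, and CLSPN to CHAF1A, of chromatin assembly, at 0.22. GINS1 was closest to FANCA, of the Fanconi complex, at 0.10, and GINS4 to PHGDH, an enzyme of serine synthesis, at 0.16, with the licensing factor CDT1 next at 0.17.

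No member had another member as its closest gene. CDC45 and GINS3 lay 0.23 apart and GINS2 and MCM10 0.20 apart, whereas TIMELESS was closest to the splicing factor gene PPIH at 0.12. TIPIN was closest to OTULINL at 0.12, and its nearest member, WDHD1, came at rank 1177 with 0.48. The partner of TIPIN, TIMELESS, was thus farther from it than that. The remaining genes among the closest 3 of a member were FADS2 and FEN1 for CDC45, CEP78 and MND1 for GINS1, MCM2 and FADS2 for GINS2, MCM4 and CDC6 for MCM10, NCAPH2 and LSM4 for TIMELESS, and UBR7 and FANCE for TIPIN, beside unnamed transcripts for GINS4 and CLSPN.

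The remaining genes of the same pathway were read from lists of known roles. Over all genes tested, 35.8% were called lower and 38.2% higher in the CCNB1-negative fraction, and 27.3% lower and 38.0% higher in the CCNB1-positive. The 6 MCM subunits of the helicase ring were all called lower in both fractions, with median log2 differences of -3.77 for the CCNB1-negative and -1.46 for the CCNB1-positive fraction, and 5 of the 6 had a called difference between the responses. MCM7 was the exception, at -1.72 ± 0.14 (SE) and -1.10 ± 0.14 in the 2 fractions and with an interaction of 0.62 ± 0.20 (limma adjusted p = 0.111). Of 12 genes that fire origins, all 12 were called lower in the negative fraction, and in the positive fraction 4 were called lower and 1, DBF4B, higher. POLE3, a subunit of the leading strand polymerase, was at -2.36 ± 0.16 and -1.70 ± 0.16, DONSON, which helps to bring GINS to the MCM ring, at -2.12 ± 0.18 and -0.38 ± 0.18, and DBF4B, an activator of the CDC7 kinase, at -0.71 ± 0.23 and 0.62 ± 0.23. The last value of DONSON did not pass the test.

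The lists that act on the fork without being part of the helicase were more mixed. Of 12 genes that sense stalled forks, 8 were called lower and 2 higher in the negative fraction, and 6 lower and 1 higher in the positive. In CCNB1-positive cells HUS1 was at -1.35 ± 0.24 and RPA3 at -0.56 ± 0.21, and RAD9A, which encodes another part of the ring that holds HUS1, was at 1.15 ± 0.15. Of 9 genes that unload the helicase at the end of replication, 6 were called lower and 2 higher in the negative fraction, and 4 lower and 1 higher in the positive. LRR1, the substrate receptor that marks the finished helicase, was at -2.98 ± 0.20 and -1.14 ± 0.20, and TRAIP, the ligase that does so in mitosis, at -2.53 ± 0.21 and -0.15 ± 0.21, the last of which did not pass. UBXN7 was at 0.95 ± 0.16 and 0.96 ± 0.16. Of 9 further fork genes, 6 were called lower and 3 higher in the negative fraction, and 3 in each direction in the positive. DSCC1, of the alternative clamp loader, was at -4.13 ± 0.21 and -1.52 ± 0.21, CHTF8, of the same loader, at -0.72 ± 0.17 and -0.32 ± 0.17, and ZRANB3, a fork remodeller, at 0.75 ± 0.20 and 0.69 ± 0.20. CHTF8 did not pass in CCNB1-positive cells.

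Genes that overlap the members on the other strand bear on how far their reads can be assigned, since the libraries were made with a directional kit but the sources used here do not say whether strand was used for this table. GPAT4-AS1 covers the whole of GINS4 on the opposite strand and had 20, 14, 19 and 14 reads in the untreated and 55, 58, 68 and 49 in the treated libraries, where GINS4 itself had 23 and 18 in the treated CCNB1-negative fraction. Reads of these 2 genes cannot be told apart without strand. For the other members, such neighbours had few reads or a short overlap: NINL, opposite GINS1, had 3 to 25 reads, and the overlap of GINS2 with GSE1 is 7 bases long. On the same strand, the processed pseudogenes RPL9P25 and RPSAP13 overlap TIPIN and WDHD1 by 579 and 875 bases. Neither pseudogene is among the genes counted here, so their reads are not known, and strand would not separate them. TIPIN has a processed copy named TIPINP1, with which reads could be shared.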

How the data were processed

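Poly(A) RNA of HT29 cells sorted for CCNB1 was sequenced in 8 libraries. Reads were trimmed with Trim Galore 0.5.0 and mapped to GRCh38 with HISAT2 2.1.0, as the submitters' processing notes name them, and the authors quantified genes in SeqMonk and deposited log2 values of reads scaled to the largest library. A gene with no read carries the value of 0.9 reads. Libraries were made with a directional kit. The annotation release and whether counting used strand are not given in the sources used here. Labels and methods name different growth media, and titles and descriptions contradict each other, so groups follow the descriptions.

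From these values the underlying reads were computed, which came out whole (within 0.01 read) for 100% of genes in each library and gave the RPM and the depth per library. Intervals cover the spread between libraries and not what the sort or the labels could change. The authors tested counts with DESeq2, whereas limma was chosen here because the deposited unit is log2. The filter kept genes whose mean over the libraries reached 1 RPM, and these were fitted with limma 3.58.1 (R 4.3.3, lmFit and eBayes with trend) on all 8 libraries with 1 coefficient per group, with no pseudocount, two-sided, with Benjamini-Hochberg adjustment across the 14219 genes and calls at an adjusted p under 0.05. No replicate pair agreed within sampling noise (chi-square per gene 15.6 to 30.2), so none was counted as 1 sample. The script was tested on simulated data. Tables and figures used Python 3.11.15, pandas 2.3.3, numpy 2.4.6, scipy 1.17.1 and matplotlib 3.10.9.

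The 10 members and the lists were chosen with earlier results of these data known. Named genes are all members, the lowest, middle and highest gene of each related list by the CCNB1-positive response, the 3 genes most like each member, CCNB1 and genes overlapping a member. A result under this rule is not reported here. Genes of the marker lists that the text names were chosen after their values were seen. Gene models are from GENCODE 44, which holds 99.3% of the identifiers of the table. Promoters are from RefSeq. Alternatives were other filters on low values, normalizations, pseudocounts of 0.1 and 1 RPM, limma-voom, a model of only the groups compared, blocks for the replicate number and for the pair of fractions, scaling to nuclear reads without MALAT1, a threshold of 0.01, another gene length and leaving out each library.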

Additional observations from a re-analysis of the deposited data

Results flagged for a closer look

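The response to selumetinib differed between the CCNB1-positive and the CCNB1-negative fraction for 9 of the 10 members, by the interaction term in limma (Benjamini-Hochberg adjusted p under 0.05 over all genes tested). The log2 response of the CCNB1-positive cells minus that of the CCNB1-negative cells was 2.88 for GINS2, 2.82 for CLSPN, 2.60 for MCM10, 2.21 for GINS4, 2.20 for GINS3, 2.17 for CDC45, 1.79 for GINS1, 1.69 for WDHD1 and 1.31 for TIMELESS. These values rest on all 4 groups, including untreated cells, where CCNB1-positive minus CCNB1-negative ranged from -1.44 for CLSPN to 0.11 for TIMELESS. The treated CCNB1-negative libraries were the shallowest, and the reads of a member there ranged from 18 for GINS4 to 332 for TIMELESS. The pattern was not particular to the members. All 3 S phase, 6 G2 and mitosis and 4 G1/S genes were called the same way, with medians of 2.64, 2.64 and 2.69, against 2.18 for the members. So were 11 of 12 origin firing genes and 5 of 6 MCM subunits. Fewer were called among genes that sense stalled forks (5 of 12), unload the helicase (2 of 9) or are further fork genes (3 of 9), and 0 of 10 ERK outputs were.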

How the results depend on the processing

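Of the alternative values of the members, 188 of 188 kept direction and call in the CCNB1-negative response, 176 of 188 in the CCNB1-positive response, 178 of 198 between untreated fractions, 197 of 198 between treated fractions and 186 of 188 in the interaction. In some of these settings the log2 difference could not move, so only the call could change. They were the filters, the blocks, the model of only the groups compared, the threshold of 0.01 and leaving out a library outside the comparison. Members differing between the untreated fractions numbered 3 in place of 5 without a filter, with quantile normalization and at an adjusted p under 0.01, and 3 to 5 with 1 library left out. The signs of GINS1 and TIPIN turned where neither passed the test. For GINS1 the CCNB1-positive response was 0.083 when scaled to nuclear reads without MALAT1, and its untreated fraction difference ranged from -0.13 to 0.18 with 1 library left out. For TIPIN the treated fraction difference ranged from -0.39 to 0.13 in the same way. Over all genes, calls between untreated fractions (408) were 259 without a filter, 254 with quantile normalization, 217 at the stricter threshold, 1923 with the pair block and 224 to 455 with 1 library left out. Those between treated fractions (3077) were 1338 at the stricter threshold, 6671 with the pair block and 1156 to 4279 with 1 library left out. Those of the interaction (758) were 496 without a filter, 426 at the stricter threshold, 3850 with the pair block and 489 to 1806 with 1 library left out. The cause was not tested. With the replicate block 10, 8, 5, 9 and 9 members were called in the 5 comparisons, as without it. Same-numbered libraries correlated across genes at 0.35 and 0.43 between the 2 fractions of a treatment and at -0.09 to 0.08 between treatments. The main model took no pairs. With the pair block the interaction passed for all 10 members, TIPIN included (limma adjusted p = 0.00807). The untreated fraction difference then passed for 6, WDHD1 included (limma adjusted p = 0.00664). Quantile normalization moved the share of higher calls from 47.5 to 65.7% between untreated fractions, from 63.6 to 46.5% between treated fractions, from 58.1 to 47.1% in the CCNB1-positive response and from 93.5 to 69.2% in the interaction, and scaling to nuclear reads moved it from 51.6 to 63.1% and from 58.1 to 71.9% in the responses and from 63.6 to 53.2% between treated fractions. That scaling raised the median of all genes by 0.31 and 0.25 in the responses, and relative to that median the members' own median was -3.05 and -1.16, which 1 factor per library cannot change. CLSPN lost its CCNB1-positive call under 9 of 19 alternatives and GINS4 gained it under 2, quantile normalization and median of ratios scaling. CDC45 lost its call between untreated fractions under 10 of 20 alternatives and TIPIN under 6 of 20. GINS3 and GINS4 were not tested at 10 RPM. GINS4 had the fewest reads, with 18 and 23 in treated CCNB1-negative libraries.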
